A study of Mus musculus with 108 samples.

Results

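The effect of losing a single working copy of Cul3 was measured in the cortex (CX) of adult mice. The comparison held 10 of the 108 libraries of the series, chosen by the sample titles of adult CX, with 5 from wild-type (WT) mice and 5 from heterozygous mutant (Cul3+/-) mice. Each library was made from the total RNA of 1 mouse, and the labels give postnatal day 35 in the title and adult as the age. Mutant mice carried a germline frame-shifting insertion of a single base in a coding exon of Cul3, made with CRISPR/Cas9 and back-crossed to C57BL/6N (written C56Bl/6N in the labels). WT mice had the same background, and the labels name no other allele or treatment, and the allele was present in every cell and from conception, so effects arising in CX and elsewhere or earlier cannot be told apart. The titles list 12 adult CX libraries, but for replicate 5 of each genotype the sources gave opposite genotypes, and these 2 mice were left out. Sex is not in the labels. Replicates keep the numbers of the titles (1, 2, 3, 4 and 6 in each genotype).

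Cul3 encodes a cullin, the scaffold of ubiquitin ligases in which BTB-domain proteins select the substrate. Its adaptors include Keap1, which holds the transcription factor Nrf2 low, and the KCTD proteins that lead RhoA to degradation. These are events on protein, whereas the values here are RNA levels. Neurofilaments are the intermediate filaments of axons, activity genes are those that neurons transcribe within minutes to hours of firing, and amino acid transporters supply and clear transmitters and building blocks.

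Library totals ran from 28516499 to 44411282 expected counts. Levels are in CPM, counts scaled to a common library size over the genes tested with TMM factors, and a log2 fold change is that of mutant over WT mice from edgeR, with its standard error (SE). Markers of upper cortical layers marked the tissue as labelled, with a mean log2 CPM between 6.10 and 6.40 in the CX libraries of the 10 mice, against 4.75 to 4.94 in hippocampus (HIP) and 3.68 to 4.497 in cerebellum (CB). Mutant replicate 4 stood apart. Its 4 measured choroid plexus markers summed to 54.5 CPM, against 3.54 to 6.37 CPM in WT libraries, and 48.4 CPM of that was Ttr (transthyretin), against 0.357 to 2.76 CPM in the other 9 libraries. WT replicate 2 was the lowest of the 10 libraries for each of the 8 nuclear noncoding RNAs listed. Xist was between 136 and 219 CPM in replicates 2, 4 and 6 of both genotypes and at most 0.0278 CPM in replicates 1 and 3 of both, so the genotypes held equal numbers of libraries of each kind. The activity genes as a class are given below with and without mutant replicate 4. So are some single genes and lists in which it was the outlying library.

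Cul3 was the only gene called in adult CX. Its level was 172, 174, 145, 171 and 154 CPM in WT replicates 1, 2, 3, 4 and 6 and 83.9, 85.8, 84.1, 88.1 and 84.5 CPM in the mutant replicates of the same numbers. Every mutant library was below every WT library, and the mutant values lay closer together (SD 1.72 CPM, n = 5) than the WT values (SD 12.8 CPM, n = 5). The mean fell from 163 to 85.3 CPM, or to 52.2% of WT, and its log2 fold change was −0.94 (SE 0.052), for which the quasi-likelihood test of edgeR gave an adjusted p of 1.66e-06. Here and below, p-values of genotype within a region measure the spread between these mice. Tests of a difference between regions have each mouse as a block and rest on the variation left within mice. An exact 2-sided permutation test over all arrangements of the libraries gave p = 0.00794, the smallest it can give. The gene lies on the minus strand of chromosome 1 (80264923 to 80340480, GRCm38), and its counts pool both alleles, so transcripts of the edited allele were counted wherever they remained. In the left-out pair, the library titled WT had 175 CPM and the library titled mutant 83.9 CPM of Cul3, when all 12 libraries were scaled together.

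**Figure D1:**
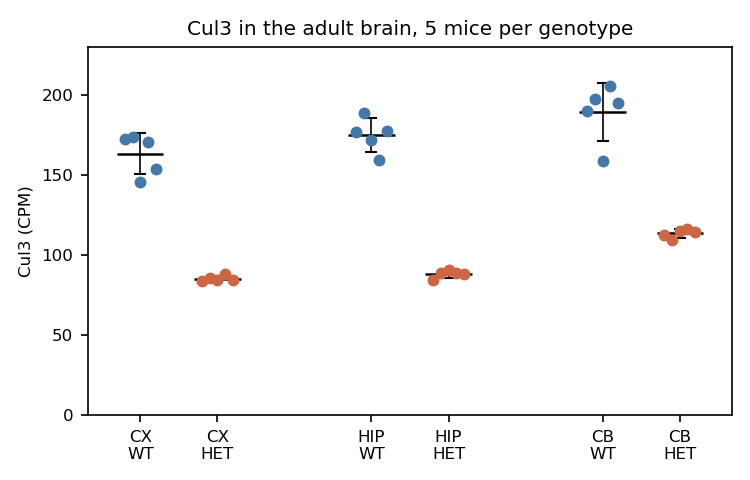
Cul3 level (CPM) in CX, HIP and CB of the same 5 WT and 5 mutant (HET) adult mice. Points are mice, bars the mean and whiskers the SD, and in each region all mutant mice lie below all WT mice.

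The same mice had 159 to 189 CPM of Cul3 in WT HIP against 84.2 to 90.3 CPM in mutant HIP. In CB the WT mice had 159 to 206 CPM and the mutant mice 109 to 116 CPM. The genotypes did not overlap in any region. The log2 fold changes were −0.99 in HIP and −0.74 in CB, where Cul3 was also the only gene called (0.00584% of the genes tested in each region), and the test of the difference between regions, with each mouse as a block, gave an unadjusted p of 0.00144 and an adjusted p of 0.255 from edgeR, which did not pass (0.00525% of genes did).

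In CX, 1 of 17569 genes (0.00569%) thus passed an FDR of 0.1. No other gene of any class below passed, and the next smallest adjusted p was 0.423 (Gm10635). Classes are therefore described by their medians, by the number of members on each side of 0 and by the number with an unadjusted p under 0.05. Over all genes tested, that number was 643 (3.66%), with 364 higher in mutant mice (2.07%) and 279 lower (1.59%), and 52.0% of genes had a log2 fold change above 0. The median over all genes was 0.0038 on the log2 scale. The genotypes did not overlap for 107 genes (0.609%), of which 49 were higher (0.279%) and 58 lower (0.330%) in mutant mice. CX is a mixture of cell types, in which fewer cells of a type and less RNA per cell cannot be told apart.

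The 10 genes with the smallest p after Cul3 were 6 protein-coding genes and 4 others. Plat, tissue plasminogen activator (chromosome 8), had 30.96 to 34.7 CPM in WT and 36.3 to 39.3 CPM in mutant libraries. The genotypes did not overlap, and the log2 fold change was 0.21 (SE 0.043, unadjusted p = 0.000262 from edgeR). Vegfa, the angiogenic growth factor (chromosome 17), likewise had 39.6 to 43.0 CPM in WT and 46.3 to 53.3 CPM in mutant libraries, a log2 fold change of 0.21 (SE 0.048). Gpr153, an orphan receptor gene (chromosome 4), lay the other way, with 16.4 to 19.95 CPM in WT and 14.2 to 15.9 CPM in mutant libraries (log2 fold change −0.27, SE 0.061). Gm765 (chromosome 6), a gene of low level, had 1.73 to 2.38 CPM in WT and 0.914 to 1.39 CPM in mutant libraries. The remaining protein-coding genes, Slc3a2 and Nab2, belong to classes below.

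Among the noncoding genes of this set, the long noncoding RNA Gm10635 (chromosome 9) had 2.31 to 3.96 CPM in WT and 1.03 to 1.84 CPM in mutant libraries. Its log2 fold change was −1.14 (SE 0.19), larger than that of Cul3, at a level that is a small fraction of it. It did not overlap between genotypes. DESeq2 called it (adjusted p = 0.000537), as did the likelihood ratio test (adjusted p = 0.000707) and RUVs with 3 factors of unwanted variation (adjusted p = 8.83e-05). It was also called with the replicate number as a block (adjusted p = 0.0383), without a low-count filter (adjusted p = 0.0817) and over all 12 libraries (adjusted p = 0.0998). No setting that left out a library called it. C730002L08Rik (chromosome 19) had 12.1 to 16.4 CPM in WT and 10.7 to 12.1 CPM in mutant libraries. The snRNA Gm23849 (chromosome 11) had 22.1 to 66.2 CPM in WT and 79.0 to 184 CPM in mutant libraries. It is an snRNA and Gm43580 (0.384 to 0.783 CPM in WT, 0.246 to 0.378 CPM in mutant libraries) a processed pseudogene, kinds of gene whose reads can be shared with near-identical copies, so both are uncertain.

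Activity genes were higher on average in mutant CX, with wide spread between mice of 1 genotype. All 54 listed genes were tested, 45 of them (83.3%) had a log2 fold change above 0, against 52.0% of all genes, and the median was 0.29. An unadjusted p under 0.05 was found for 11 higher members (20.4%, against 2.07% of all genes) and for 0 lower members (1.59% of all genes). This list and those below were chosen with earlier results of these data known. Activity genes also varied together between mice, so the counts are descriptions and not a test of the class. None passed an FDR of 0.1 in edgeR's tests or by DESeq2, while RUVs with 3 factors called 1 (Nab2, adjusted p = 0.0714), and no member was free of overlap between genotypes. The class includes transcription factors made in the first wave after firing (Fos, Egr1, Nr4a1), other genes of that wave (Arc, Dusp1) and later or effector genes (Bdnf, Nptx2). Their median log2 fold changes were 0.37 (18 genes, 17 above 0), 0.25 (12 genes, 11 above 0) and 0.14 (24 genes, 17 above 0).

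Many of these genes are switched on through short promoter elements. To show what such promoters look like, 300-base promoter windows from RefSeq (GRCm38.p6, from 250 bases before to 50 after the start) were searched for the cyclic AMP response element TGACGTCA, its core TGACG (contained in the full element), and the CArG box bound by serum response factor, each on both strands. Of the 54 activity genes, 40 had a window. The full element was in 6 of them (15%), against 2.03% of 27025 genes with a window, and the core in 28 (70%), against 23%. The CArG box was in 2 (5%), against 1.81%. A site for the Egr proteins, also searched on both strands, was in 10 (25%), against 6.27%. A match is a description of the sequence and not a measured binding site. The stretches below show the full element (the first 6) or the CArG box (the last 2, whose genes hold further CArG matches in their windows) in capitals, on the strand of the gene.
Maff, chr15:79347475-79347514, plus strand: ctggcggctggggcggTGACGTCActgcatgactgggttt
Plk2, chr13:110394966-110395005, plus strand: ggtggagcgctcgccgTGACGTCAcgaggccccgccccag
Dusp1, chr17:26508592-26508631, minus strand: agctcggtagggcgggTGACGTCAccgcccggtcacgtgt
Btg2, chr1:134079298-134079337, minus strand: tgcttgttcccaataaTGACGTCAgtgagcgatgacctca
Pcsk1, chr13:75089763-75089802, plus strand: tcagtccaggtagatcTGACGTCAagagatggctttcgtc
Scg2, chr1:79440071-79440110, minus strand: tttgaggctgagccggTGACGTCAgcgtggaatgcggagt
Egr2, chr10:67537781-67537822, plus strand: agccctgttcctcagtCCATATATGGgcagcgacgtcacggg
Dusp5, chr19:53529057-53529098, plus strand: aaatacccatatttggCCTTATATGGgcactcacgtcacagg

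The 6 genes with the full element did not stand out among the activity genes. Their median log2 fold change was 0.11, with 5 above 0, against 0.33 for the 34 without it, with 28 above 0. Maff, a small Maf transcription factor, differed by 0.89 on the log2 scale (SE 0.35), or by 0.47 without mutant replicate 3, at 0.384 to 0.681 CPM in WT and 0.522 to 1.92 CPM in mutant libraries. Scg2, the secretogranin precursor of neuropeptides, had −0.058, and like Bdnf below it was chosen after its values were seen.

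Among the first-wave transcription factors, Nr4a3, an orphan nuclear receptor, had 19.3, 23.5, 41.0, 36.1 and 22.3 CPM in WT replicates 1, 2, 3, 4 and 6. In the mutant replicates it had 41.1, 37.3, 54.1, 39.1 and 42.1 CPM. WT replicate 3 lay among the mutant libraries and the other 4 lay below them, and the log2 fold change was 0.59 (SE 0.18, unadjusted p = 0.00643 from edgeR). Klf10, a Krüppel-like repressor, had 36.1 to 45.2 CPM in WT and 39.0 to 59.1 CPM in mutant libraries (log2 fold change 0.29, SE 0.095). Fosl2, a partner of Jun in the AP-1 dimer, had 39.1 to 85.7 CPM in WT and 60.1 to 92.1 CPM in mutant libraries (0.41, SE 0.19, and 0.62 without WT replicate 4).

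The best-known members showed large spread. Fos, singled out here after its values were seen, was 54.6, 56.9, 117, 72.5 and 59.4 CPM in WT and 123, 95.1, 108, 33.3 and 96.1 CPM in mutant replicates 1, 2, 3, 4 and 6. Mutant replicate 4 was the lowest of all 10 libraries and WT replicate 3 lay among the higher mutant libraries, so the log2 fold change of 0.33 (SE 0.29) did not exceed the spread. Without mutant replicate 4, that of Fos was 0.55 (unadjusted p = 0.0143 and adjusted p = 0.952 from edgeR). Npas4, a neuron-specific factor induced by calcium entry and also singled out afterwards, was the lowest member of the class at −0.42 (SE 0.23), or −0.24 without mutant replicate 4, with 34.2 to 61.6 CPM in WT and 16.2 to 43.9 CPM in mutant libraries.

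Of the other genes of the first wave, Arc, which drives the uptake of AMPA receptors at synapses, was among the 3 most abundant activity genes. It had 244, 265, 514, 496 and 297 CPM in WT and 534, 481, 517, 180 and 555 CPM in mutant replicates 1, 2, 3, 4 and 6. The libraries fell on a high and a low level, and the low level held WT replicates 1, 2 and 6 and mutant replicate 4. The log2 fold change of Arc was 0.32 (SE 0.28). It was 0.52 without mutant replicate 4 and 0.21 without WT replicate 1. Sik1, a salt-inducible kinase, had 9.11 to 23.8 CPM in WT and 13.1 to 31.2 CPM in mutant libraries (log2 fold change 0.66, SE 0.26). Per1, a clock gene that is also induced by cyclic AMP, had 27.8 to 59.0 CPM in WT and 35.8 to 67.4 CPM in mutant libraries (0.49, SE 0.19). Homer1, a scaffold of the postsynaptic density, showed no such order, with 286 to 747 CPM in WT and 374 to 556 CPM in mutant libraries (0.067, SE 0.20).

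Nab2, a corepressor that binds the Egr proteins and is itself induced by them, had the smallest p of the class. It was 22.5, 24.8, 30.6, 31.6 and 24.0 CPM in WT and 37.9, 35.02, 41.8, 30.7 and 33.8 CPM in mutant replicates 1, 2, 3, 4 and 6. Only mutant replicate 4 fell within the WT range, and the log2 fold change was 0.43 (SE 0.10, unadjusted p = 0.00101 from edgeR). Tiparp, an ADP-ribosyltransferase, had 17.3 to 35.2 CPM in WT and 18.2 to 58.8 CPM in mutant libraries (log2 fold change 0.74, SE 0.27). Midn (0.35), the transcriptional repressor Bhlhe40 (0.34) and the kinase gene Plk3 (0.27) were the remaining members with an unadjusted p under 0.05. Plk2, a relative of Plk3 and more abundant, had 224 to 285 CPM in WT and 218 to 285 CPM in mutant libraries (0.095, SE 0.078). Bdnf, the neurotrophin, had a log2 fold change of 0.016 (SE 0.18).

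**Figure D2:**
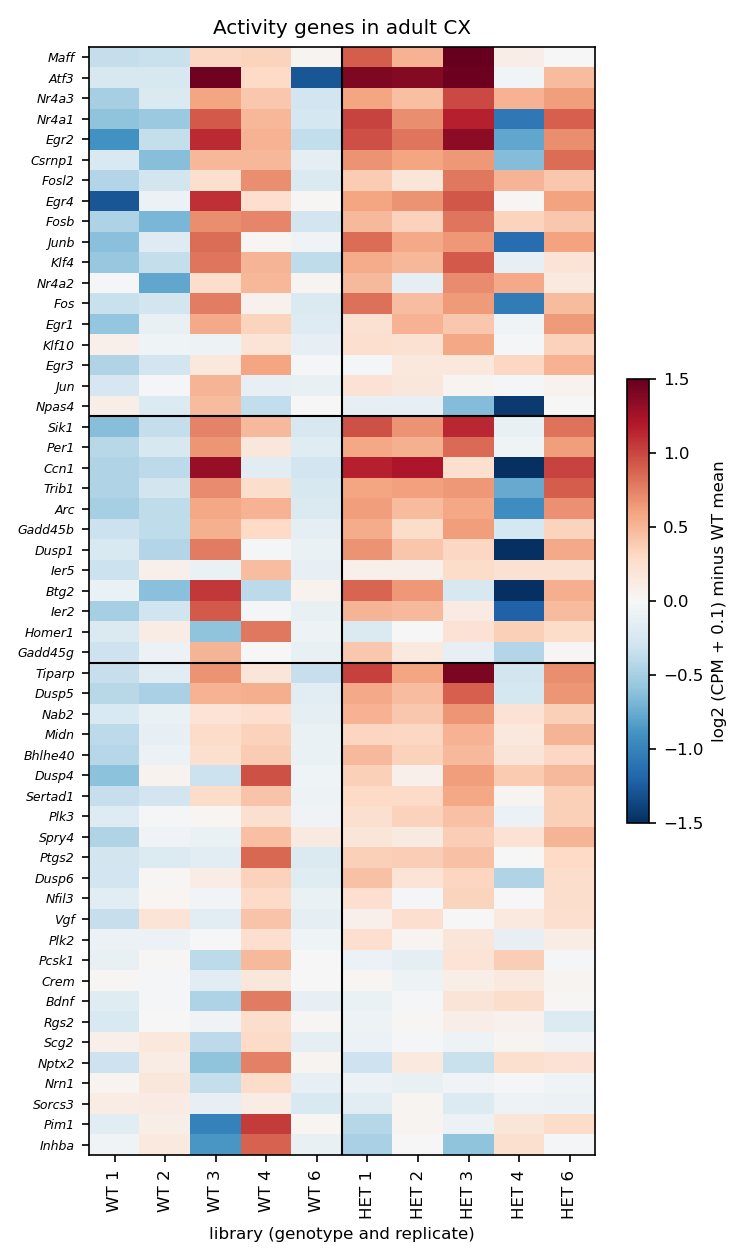
The 54 activity genes in each adult CX library, as log2 (CPM + 0.1) minus the mean of the 5 WT libraries, with red for higher and blue for lower and colours saturating at 1.5 in either direction. Rows are grouped as transcription factors of the first wave, other genes of the first wave, and later and effector genes, with the mutant (HET) libraries right of the line, where HET 4 has 7 of 18 first-wave transcription factors above the WT mean against 16 or 17 in the other HET libraries.

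Within a genotype, activity genes varied more between mice than the median gene did. The median within-genotype SD of log2 CPM was 0.382 over the 54 genes, against 0.124 over all genes tested and 0.109 over amino acid transporters. Some other lists also varied widely, with 0.565 over choroid plexus markers, 0.357 over blood markers and 0.349 over nuclear noncoding RNAs. The variation of activity genes was shared by members. Compared with the WT mean, the median first-wave transcription factor of WT replicate 3 was 0.576 higher (log2 scale), with 17 of 18 members above it, and that of WT replicate 4 was 0.369 higher, while WT replicates 1, 2 and 6 were at −0.445, −0.272 and −0.165. Mutant replicates 1, 2, 3 and 6 were at 0.572, 0.477, 0.751 and 0.476. Mutant replicate 4 was at −0.032 for the transcription factors and at −0.596 for the other first-wave genes.

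The later genes followed a different order. WT replicate 4 had all 24 of them above the WT mean, with a median of 0.366, whereas WT replicate 3, high in the first wave, was at −0.108. Mutant replicate 4, low in the first wave, was at 0.108, with 17 of 24 above the WT mean. The median of the other mutant libraries was between 0.102 and 0.262.

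The size of the difference depended on single libraries. The median log2 fold change of the class was between 0.19 (without WT replicate 1) and 0.40 (without WT replicate 3) when single libraries were left out, and the number with an unadjusted p under 0.05 and higher ran from 5 to 25. Without mutant replicate 4 it was 25 of 54, against 2.81% of all genes, and the median was 0.36. Without WT replicate 3 it was 23, against 4.59% of all genes, and without WT replicate 4 it was 25, against 2.78%. Without WT replicate 1 it was 6 (1.91% of all genes), without WT replicate 2 it was 7 (1.45%) and without mutant replicate 3 it was 5 (1.46%). It was 8 without WT replicate 6 (1.73%), and 9, 12 and 10 without mutant replicates 1, 2 and 6 (1.62%, 1.76% and 1.71%). With all 12 libraries by their titles it was 3 of 54, against 3.53% of all genes, and the median was 0.22. With the replicate number as a block it was 16 (2.67% of all genes), and under RUVs with 3 factors it was 21 (3.18%).

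The same mice were low or high in the other regions. The mean log2 CPM of the activity genes in CX was 4.54, 4.69, 5.16, 5.23 and 4.72 in WT and 5.25, 5.19, 5.32, 4.66 and 5.24 in mutant mice numbered 1, 2, 3, 4 and 6. Mutant mouse 4 was the lowest mutant mouse in CX, in HIP (4.12, against 4.27 to 4.39 in the other 4) and in CB (3.41, against 3.82 to 3.96). WT mice 3 and 4 were the highest WT mice in CX, in HIP (4.24 and 4.32, against 3.97 to 4.204) and in CB (3.85 and 3.71, against 3.55 to 3.58). The regions come from the same animals and are not independent of each other. In HIP, 37 of 54 activity genes were above 0 with a median of 0.079, and 10 higher and 1 lower members had an unadjusted p under 0.05 (3.40% and 2.84% of all genes in HIP). In CB, 41 of 52 were above 0 with a median of 0.098, and 7 higher and 1 lower members had such a p (5.71% and 8.66% of all genes in CB). The test of a difference in the genotype effect between regions gave an unadjusted p under 0.05 for 9 of 54 members (16.7%), against 15.8% of all genes, and called none.

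**Figure D3:**
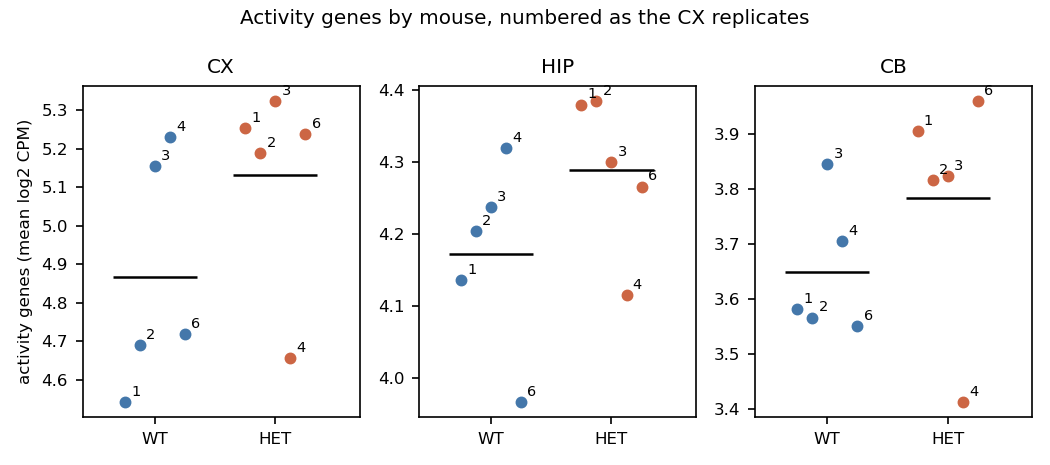
Mean log2 CPM of the activity genes in CX, HIP and CB of each adult mouse, numbered by its CX replicate, with the genotype mean as a bar and a separate y axis for each region. Mutant mouse 4 is the lowest mutant (HET) mouse and WT mice 3 and 4 are the highest WT mice in all 3 regions.

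Neurofilament subunits did not move as a unit. Of the 5 subunits, the median log2 fold change was 0.14, 4 had a log2 fold change above 0, 2 had an unadjusted p under 0.05 (higher, 2.07% of all genes) and the genotypes overlapped for all 5. Without WT replicate 6 the median was 0.057 and without mutant replicate 2 it was 0.092. Per kilobase of exon, the levels in WT CX were 144 CPM for Nefl, 29.6 for Ina, 15.1 for Nefm, 13.5 for Nefh and 1.36 for Prph. In mutant CX they were 144, 30.98, 16.7, 15.5 and 1.75 CPM per kilobase. The light subunit was thus the most abundant in both genotypes and the heavy subunit lay next to the medium one.

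Nefh, the heavy subunit with the long phosphorylated tail, had 51.6, 59.3, 50.3, 58.2 and 50.9 CPM in WT and 59.1, 67.1, 60.0, 67.0 and 56.9 CPM in mutant replicates 1, 2, 3, 4 and 6. WT replicates 2 and 4 lay among the lower mutant libraries, and the log2 fold change was 0.20 (SE 0.064, unadjusted p = 0.00809 from edgeR, adjusted p = 0.997). It was between 0.17 and 0.23 with single libraries left out, and RUVs with 3 factors called it (0.22, adjusted p = 0.0201). Nefm, the medium subunit, had 66.9 to 94.3 CPM in WT and 91.1 to 109 CPM in mutant libraries (log2 fold change 0.14, SE 0.086), with WT replicate 6 below the rest and a log2 fold change of 0.057 without it. Nefl, the light subunit that forms the core of the filament, had 439 to 545 CPM in WT and 452 to 521 CPM in mutant libraries, a log2 fold change of −0.0028 (SE 0.061). The means were 487 ± 45.2 CPM and 486 ± 25.7 CPM (SD over 5 libraries). Ina, alpha-internexin, had 84.9 to 103 CPM in WT and 91.2 to 105 CPM in mutant libraries (0.065, SE 0.060). Prph, peripherin, was at 1.96 to 3.65 CPM in WT and 2.46 to 4.03 CPM in mutant libraries (0.36, SE 0.17).

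The other intermediate filaments were mixed. Nes, nestin of progenitors and vessels, had 11.1 to 16.3 CPM in WT and 12.6 to 19.0 CPM in mutant libraries (log2 fold change 0.29, SE 0.11). Synm, synemin, had 38.9 to 48.3 CPM in WT and 47.2 to 49.2 CPM in mutant libraries (0.13, SE 0.057). Gfap, the astrocyte filament, lay the other way with 98.2 to 120 CPM in WT and 73.8 to 119 CPM in mutant libraries (−0.18, SE 0.11, and −0.28 or −0.11 without mutant replicate 4 or 6). Over the 12 filament genes, 10 were above 0, with a median of 0.10 and 4 with an unadjusted p under 0.05, all higher (33.3%, against 2.07% of all genes). The count of higher members was 1 without WT replicate 6 (1.73% of all genes were higher). It was also 1 without mutant replicate 1, 3 or 4 (1.62%, 1.46% and 2.81% of all genes). The median of the list stayed between 0.071 and 0.14. Without mutant replicate 4, Gfap also had an unadjusted p under 0.05 (0.00635 from edgeR), in the lower direction.

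**Figure D4:**
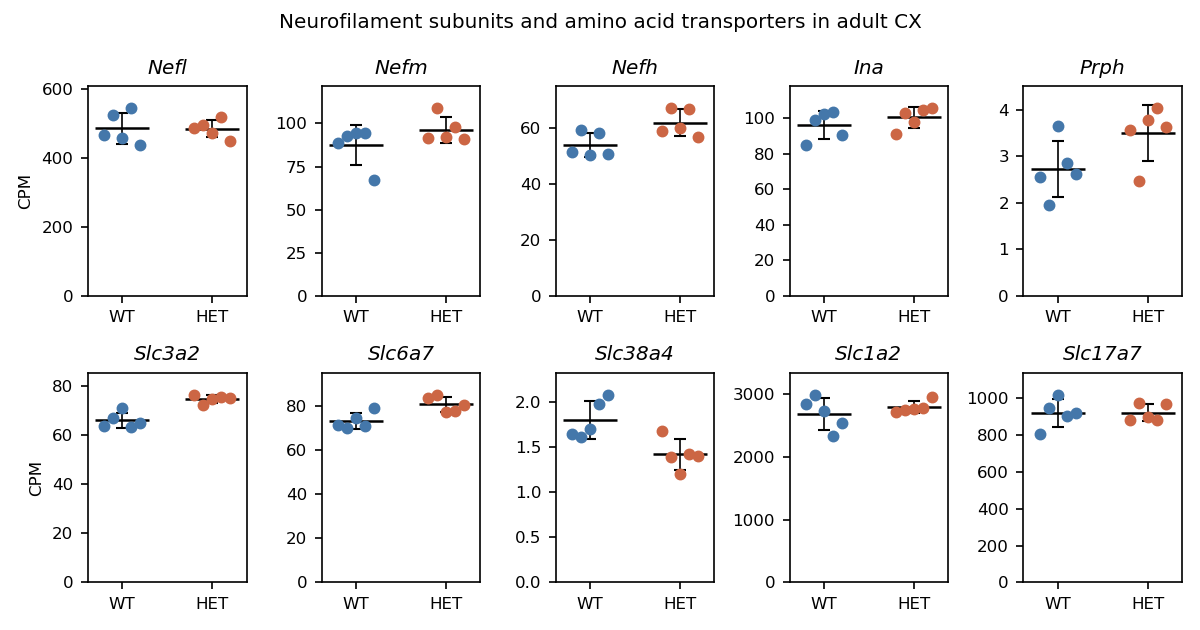
Levels (CPM, axes from 0) of the 5 neurofilament subunits and of 5 amino acid transporters in adult CX. Points are the 5 WT and 5 mutant (HET) libraries, bars the mean and whiskers the SD, and Slc3a2 alone has no overlap between genotypes.

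The 29 listed genes of the Cul3 ligase and its adaptors had a median log2 fold change of 0.0022, with 15 above 0. None of the 17 tested Nrf2 target genes had an unadjusted p under 0.05 (median 0.027, 12 above 0). The list of axon and fast-spiking neuron genes had 1 of 18 (5.56% higher, against 2.07% of all genes), Sptbn4, the spectrin of axon initial segments and nodes, with 116 to 160 CPM in WT and 148 to 167 CPM in mutant libraries (0.21, SE 0.070). The 9 genes of initial segment and node, Sptbn4 included, had a median of 0.048, and the 9 genes of fast-spiking cells and their terminals one of −0.0093.

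Cytoskeletal genes outside the filaments gave few small differences. Of 30 microtubule-associated proteins, Map6d1, a relative of the stabilizing protein Map6, had 39.2 to 47.4 CPM in WT and 36.1 to 38.9 CPM in mutant libraries. The genotypes did not overlap (0.330% of all genes were lower without overlap), and the log2 fold change was −0.19 (SE 0.053, unadjusted p = 0.0035 from edgeR). The median of the list was 0.016. Of 30 RhoA and actin genes, 3 had an unadjusted p under 0.05, all higher (10.0%, against 2.07% of all genes). Among them were the nonmuscle myosin Myh9 (log2 fold change 0.20, SE 0.079) and Flna (0.19, SE 0.078), a filamin that crosslinks actin. Without mutant replicate 4, Myh9 was at 0.15 (unadjusted p = 0.0723 from edgeR) and Flna at 0.21 (unadjusted p = 0.0256). Rhoa itself averaged 91.1 CPM in WT and 88.8 CPM in mutant libraries (log2 fold change −0.038), chosen for its role as the namesake of the list.

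Amino acid transporters differed little. Of 65 listed genes 62 were tested, and Slc3a1, Slc43a1 and Slc6a5 were too low. A log2 fold change above 0 was found for 49 of them (79.0%, against 52.0% of all genes), but the median was only 0.035. Under upper-quartile scaling 45 were above 0 and the median was 0.029. An unadjusted p under 0.05 was found for 2 higher members (3.23%, against 2.07% of all genes) and 1 lower member (1.59% of all genes). By family, the median was 0.054 for the cationic and heteromeric transporters (15 of 16 above 0), 0.048 for the SLC1 family (5 of 6), 0.036 for the sodium- and chloride-coupled SLC6 family (10 of 11), 0.030 for systems A and N (6 of 10) and 0.0076 for the mitochondrial carriers (6 of 10).

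Slc3a2, the heavy chain (4F2hc) that carries the light chains of the SLC7 family to the cell surface, was the clearest member. It had 63.6, 66.9, 71.2, 63.4 and 65.1 CPM in WT and 76.4, 72.4, 74.6, 75.5 and 75.3 CPM in mutant replicates 1, 2, 3, 4 and 6. All mutant libraries were above all WT libraries (0.279% of all genes were higher without overlap), with a log2 fold change of 0.18 (SE 0.041, unadjusted p = 0.000735 and adjusted p = 0.997 from edgeR). It was between 0.17 and 0.21 with single libraries left out, and DESeq2 called it (adjusted p = 0.0649). Its light chain partner Slc7a5, which imports large neutral amino acids, had 36.0 to 47.9 CPM in WT and 43.6 to 50.4 CPM in mutant libraries (0.12, SE 0.069). It was chosen here with its values known.

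Slc6a7, the brain proline transporter of glutamatergic terminals, had 69.9 to 78.8 CPM in WT and 77.2 to 84.8 CPM in mutant libraries (log2 fold change 0.14, SE 0.046). Slc38a4, a system A transporter of low level here, had 1.61 to 2.08 CPM in WT and 1.21 to 1.68 CPM in mutant libraries (−0.34, SE 0.14). The 3 most abundant members differed by less than their spread. Slc1a2, the main glutamate transporter of astrocytes, averaged 2692 ± 253 CPM across WT and 2797 ± 96.1 CPM across mutant libraries (SD, n = 5 in each genotype). Slc17a7, which loads glutamate into vesicles, had 919 ± 76.8 CPM and 921 ± 45.0 CPM, and Slc1a3, the other astrocyte glutamate transporter, had 481 ± 38.1 CPM and 492 ± 30.8 CPM.

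**Figure D5:**
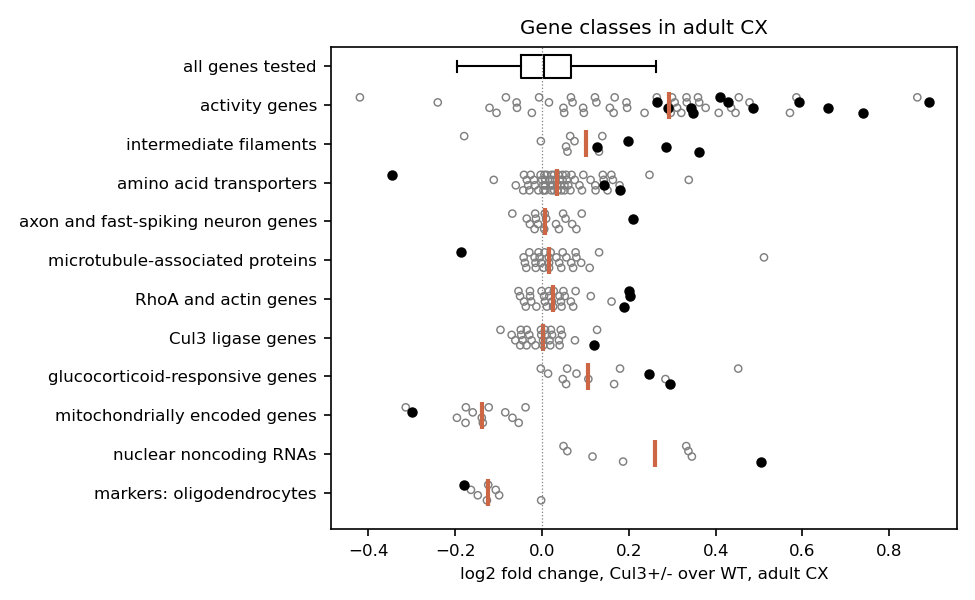
Log2 fold changes (mutant over WT) of the members of 11 gene lists in adult CX, one circle per gene, filled where the unadjusted p was under 0.05, with the median as a coloured bar and all genes tested as a box (quartiles, whiskers at the 5th and 95th percentiles). The medians of activity genes (0.29) and nuclear noncoding RNAs (0.26) lie furthest to the right of the lists plotted, and those of mitochondrially encoded genes (−0.14) and oligodendrocyte markers (−0.13) furthest to the left, while Cul3 itself is in none of the lists.

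Several other lists also differed on average between genotypes, and their part in the results above was not tested. Of 13 genes that glucocorticoids induce, 12 were above 0 (92.3%, against 52.0% of all genes, median 0.11), and 2 had an unadjusted p under 0.05 (15.4% higher, against 2.07% of all genes). The 2 were Klf15 (13.8 to 17.4 CPM in WT, 15.5 to 19.0 CPM in mutant libraries, log2 fold change 0.25, SE 0.075) and the kinase Sgk1 (51.9 to 65.0 CPM in WT, 49.5 to 83.8 CPM in mutant libraries, 0.29, SE 0.11). The lowest library of Sgk1 was mutant replicate 4, and its log2 fold change was 0.39 without that library. Without mutant replicate 4 the median of the list was 0.18 and 11 were above 0. An unadjusted p under 0.05 was then found for 4, all higher, with Ddit4 (0.37) and Errfi1 (0.20) added. Without that library, 2.81% of all genes were higher with such a p. Clock genes besides Per1 had a median of 0.055 with none of 14 under 0.05, and heat shock genes one of 0.034 with none of 8. All 8 nuclear noncoding RNAs were above 0 (median 0.26), and 1 had an unadjusted p under 0.05 (12.5% higher, against 2.07% of all genes). This was Neat1, the scaffold of paraspeckles, with 16.9 to 31.8 CPM in WT and 32.8 to 41.7 CPM in mutant libraries without overlap (0.50, SE 0.13). RUVs with 3 factors called Neat1 (adjusted p = 3.69e-05), Malat1 and Meg3 (adjusted p = 0.0145 for both). Without WT replicate 2 the median of that list was 0.11 and 6 of 8 were above 0.

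All 13 mitochondrially encoded genes were below 0 (median −0.14), with mt-Nd3 at 271 to 446 CPM in WT and 210 to 318 CPM in mutant libraries (log2 fold change −0.30, SE 0.14, and −0.16 without WT replicate 6). They made up 4.93% to 6.10% of the counts in WT and 4.34% to 5.64% in mutant libraries. All 8 oligodendrocyte markers were also below 0 (median −0.13), with a summed level of 3504 to 4499 CPM in WT and 3327 to 4495 CPM in mutant libraries and 1 of 8 with an unadjusted p under 0.05 (lower, as for 1.59% of all genes). The 5 blood markers were below 0 as well (median −0.27, summed level 204 to 270 CPM in WT and 130 to 292 CPM in mutant libraries, none with such a p). Of the markers of other cells, 4 of 6 astrocyte, 3 of 6 microglial, 3 of 5 endothelial, 3 of 5 mural, 5 of 6 meningeal, 3 of 5 oligodendrocyte precursor, 1 of 3 tested ependymal and 1 of 7 interneuron markers were above 0. Of 7 upper-layer markers 1 was above 0 (median −0.058) and of 8 deep-layer markers 4 (median 0.039). Without mutant replicate 4, Cux1 (0.0040) and Cux2 (0.021) of the upper layers were also above 0, while Calb1, Lamp5, Rasgrf2 and Rorb stayed below. Of 8 striatal markers 3 were above 0, of 6 thalamic markers 4, of 7 hippocampal markers 4 and of the 4 tested choroid plexus markers 3 (median 0.35), or 1 (median −0.36) without mutant replicate 4.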

How the data were processed

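RNA of 10 adult CX samples (5 WT, 5 Cul3+/-) was compared. The authors prepared stranded libraries after ribosomal RNA depletion, trimmed reads with Cutadapt 1.14, aligned them with STAR 2.5.3a to GRCm38.p5 and quantified genes with RSEM 1.3, and the deposited values are RSEM expected counts of 53465 genes, not normalized. Such counts split reads among the transcripts they match. Here they were rounded, low genes were removed with filterByExpr (count 10, total 15), libraries were TMM-scaled, and genotype was tested by edgeR 4.0.16's quasi-likelihood test without covariates (R 4.3.3, FDR 0.1, Benjamini-Hochberg). SE was taken as |log2 fold change| over the root of the F statistic. Log2 CPM used a prior count of 2. Genotype by region was tested with each mouse as a block over 30 libraries. Separate mice gave the replicates, and the closest pair of libraries differed by a chi-square of 5.73 per gene. DESeq2 1.42.0 and the alternatives given at the end were also run, and the scripts were tested on simulated data. Gene names and positions are from GENCODE M21 (53360 genes matched, and all 411 list entries). Named genes were Cul3, the neurofilament subunits, up to 12 members of each of the 3 main classes with an unadjusted p under 0.05 and the 3 most abundant, up to 3 such genes of each other list that is not of cell markers, and the 10 smallest p besides Cul3. Members and lists were chosen with earlier results of these data known. Some genes that this rule takes are not reported here.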

Additional observations from a re-analysis of the deposited data

Results flagged for a closer look

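A library was flagged where its gap to the nearest other library of its genotype was a large share of the group's range (Dixon's test), which chance does in about 1 in 20 groups. Of 152 groups examined, 16 held such a library. Mutant replicate 4 accounted for 5. Its activity genes had a mean log2 CPM of 4.66, against 5.19 to 5.32 in the other mutant libraries, and Arc was at 180 CPM, against 481 to 555 CPM. Its choroid plexus markers had a mean log2 CPM of 1.82, against −0.88 to −0.39, its upper-layer markers 6.10, against 6.30 to 6.35, and Myh9 was at 126 CPM, against 104 to 108 CPM.

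Other mutant libraries were flagged for single genes. Replicate 3 was high for Nr4a3 (54.1 CPM, against 37.3 to 42.1 CPM) and for Flna (97.7 CPM, against 80.6 to 83.5 CPM). Replicate 1 was high for Vegfa (53.3 CPM, against 46.3 to 47.1 CPM) and for Gm43580 (0.378 CPM, against 0.246 to 0.283 CPM), and replicate 6 was high for Slc1a2 (2963 CPM, against 2717 to 2785 CPM).

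Among WT libraries, replicate 6 was low for Nefm (66.9 CPM, against 88.9 to 94.3 CPM). Replicate 4 was high for Plk2 (285 CPM, against 224 to 237 CPM) and low for oligodendrocyte markers (mean log2 CPM 7.71, against 8.02 to 8.11). Replicate 3 was high for Klf15 (17.4 CPM, against 13.8 to 14.7 CPM). Replicate 2 was low for nuclear noncoding RNAs (mean log2 CPM 7.87, against 8.57 to 8.72) and high for deep-layer markers (5.18, against 5.04 to 5.08).

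The genotype effect on Rgs4, a regulator of G protein signalling singled out after its values were seen, differed between regions (adjusted p = 0.0976 from edgeR, each genotype having 5 mice). That call was lost under RLE scaling and in most settings that left out a mouse, where 0 to 4 genes were called. The log2 fold change of Rgs4 was −0.11 in CX (659 CPM in WT against 611 CPM in mutant libraries), −0.12 in HIP and 0.46 in CB (16.7 CPM in WT CB, a low level).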

How the results depend on the processing

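The number of genes called in CX was 1 by the main test and 4 by DESeq2 (Cul3, Gm10635, Plat and Slc3a2), 3 by the likelihood ratio test (Cul3, Gm10635 and Gm23849), 2 without a low-count filter, 2 over all 12 libraries, 2 with the replicate number as a block and 33 under RUVs with 3 factors, upper-quartile scaling and the likelihood ratio test. With single libraries left out it was 1 each time. The number with an unadjusted p under 0.05 was 643, and it was 1038 without a filter, 1135 over all 12 libraries, and from 456 to 1531 with single libraries left out (1531 without WT replicate 3). Same-numbered libraries deviated together with correlations of 0.0123 to 0.271 (median 0.108, 4 of 5 over 0.1), against a median of −0.0378 for other pairs, and they matched in whether Xist was high. The mouse numbers in the titles were consecutive within each such pair (WT 11, 15, 17, 26 and 31 with mutant 12, 14, 16, 27 and 32). The labels give no shared litter, day or animal and 1 pair stayed under 0.1, so the replicate numbers were not taken to pair the mice. A pairing remains possible. Under the block, Cul3 had a log2 fold change of −0.93.

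Cul3 stayed called in every setting run, between −0.98 and −0.91. The medians moved by less than the spread between libraries in every setting run, from 0.19 to 0.40 for activity genes, 0.057 to 0.18 for neurofilament subunits and 0.021 to 0.056 for amino acid transporters. Of the named genes, 4 near 0 changed sign. Nefl was 0.00087 under RLE, 0.00088 by DESeq2, 0.00033 with the replicate block, 0.017 under RUVs and 0.021 over all 12 libraries, and ran from −0.037 to 0.042 with single libraries left out. Slc17a7 was −0.0023 under upper-quartile scaling, −0.00087 without a filter and −0.018 under RUVs, and ran from −0.041 to 0.042 with libraries left out, Homer1 from −0.063 to 0.32 and Slc1a3 from −0.012 to 0.058. The interaction of genotype and region called 1 gene, 0 under RLE, 74 by the likelihood ratio test, 265 by DESeq2 and 0 to 4 with single mice left out. The causes were not tested. With 5 mice a genotype, small differences cannot be told from the spread, and nothing here bears on protein.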

Other observations

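Kinds of transcript differed in where their log2 fold changes (mutant over WT, adult CX) were centred. Of 1061 tested loci annotated as unverified transcripts (TEC), 710 were above 0, with a median of 0.095, and of 100 sense intronic RNAs 72 were above 0, with a median of 0.12. Small nuclear RNAs had a median of 0.28 (21 of 26 above 0) and small nucleolar RNAs one of 0.11 (40 of 58 above 0). Protein-coding genes were centred at 0.0011 (7361 of 14523 above 0) and long intergenic noncoding RNAs at −0.0051 (245 of 502 above 0). An unadjusted p under 0.05 was no more frequent among higher TEC loci (13 of 1061) than the 2.07% of all genes. Loci within 1 gene share reads and libraries, so these counts are descriptions, and these kinds of transcript were singled out after their values were seen.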
